A study of Rattus norvegicus with 2 samples.

Results

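The GADD45 and BTG genes encode small proteins that restrain cell growth, and the results below describe their liver transcripts in fasted rats and in rats given olive oil. The rule named 6 genes, Gadd45a, Gadd45b, Gadd45g, Btg1, Btg2 and Btg3, on all probe sets annotated to exactly 1 gene. Of these, 5 had such a probe set, each of them 1, among 14217 genes represented on the arrays, and Btg2 was not analysed here. All 5 were bright enough to count among the 9209 measured genes, those with a mean log2 signal no lower than that of the median probe set, a signal of 41.4. When fasted, Gadd45b and Btg3 were below that signal, so they passed only through the oil array, where they were high, and their ranks among measured genes below are read with that limit. The genes were chosen by their signals on these same 2 arrays, so their values are a description and carry no test.

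Liver RNA came from male Wistar rats, an outbred strain, 2 months old, and was hybridized to 2 Affymetrix rat expression arrays, 1 per group. Animals of both groups had gone 18 h without food. The fasted group was given no fat meal, and the olive oil group received a 5 ml bolus of olive oil, a dose of 16 ml per kg, and was killed 4 h later. Neither the number of livers behind each array, nor whether the fasted rats were kept for the same 4 h, nor the hour of killing is stated in the labels. Every value below is therefore that of a single array, with no replicate check, no standard deviation over animals and no p-value. In bulk liver RNA, fewer cells of a type and less RNA per cell cannot be told apart.

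GADD45 proteins have no known enzyme activity of their own. They act by binding other proteins, among them the kinase MAP3K4 that feeds the p38 and JNK stress pathways, the replication clamp PCNA, the inhibitor p21 and the mitotic kinase CDK1. The 3 genes are induced by different stresses and hormones, and in liver Gadd45b is best known from the first hours of regeneration. BTG proteins share an amino-terminal domain with the TOB proteins. Through it they bind the CNOT7 and CNOT8 subunits of the CCR4-NOT complex, which shortens the poly-A tails of messenger RNAs. Gadd45a, Btg2 and Btg3 are among the classical targets of p53.

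The 250 bases upstream of the start sites of the 3 GADD45 genes are shown because members of this family differed in opposite directions. The sequences are from RefSeq on the GRCr8 assembly, read 5′ to 3′ towards the gene, which lies on the minus strand in each case. Gadd45a is at chr4:97486800-97487049, Gadd45b at chr7:9430719-9430968 and Gadd45g at chr17:13530352-13530601. Capitals mark matches to the octamer ATTTGCAT, the E-box CACGTG, the CCAAT box CCAAT and the TATA box TATAAA on either strand, none of which overlapped another.
Gadd45a: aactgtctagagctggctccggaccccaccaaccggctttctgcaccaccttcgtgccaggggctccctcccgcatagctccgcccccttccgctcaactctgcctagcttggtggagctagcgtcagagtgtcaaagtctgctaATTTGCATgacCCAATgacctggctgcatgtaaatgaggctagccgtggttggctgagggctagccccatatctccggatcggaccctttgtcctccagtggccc
Gadd45b: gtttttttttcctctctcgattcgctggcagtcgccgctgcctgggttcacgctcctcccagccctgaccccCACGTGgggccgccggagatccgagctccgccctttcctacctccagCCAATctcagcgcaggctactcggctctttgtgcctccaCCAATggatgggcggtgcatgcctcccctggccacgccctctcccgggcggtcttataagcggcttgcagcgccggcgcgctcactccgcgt
Gadd45g: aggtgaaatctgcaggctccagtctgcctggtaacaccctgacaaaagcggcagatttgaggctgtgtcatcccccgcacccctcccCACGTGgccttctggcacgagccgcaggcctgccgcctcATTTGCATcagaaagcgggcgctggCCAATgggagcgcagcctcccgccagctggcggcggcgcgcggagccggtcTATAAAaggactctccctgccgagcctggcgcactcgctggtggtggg
The annotated span of Gadd45b begins 273 bases upstream of the start site used here, so this window may also lie within a longer transcript of that gene.

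The windows of Gadd45b and Gadd45g, whose signals went opposite ways, both held 1 E-box, a motif present in 5.59% of 33469 rat promoter windows of this length. It began 178 bases before the start of Gadd45b and 163 bases before that of Gadd45g. The octamer, found in 1.56% of windows, occurred in Gadd45a and Gadd45g, which also differed in direction, and not in Gadd45b. All 3 windows held a CCAAT box, as did that of Btg3 and 34% of all windows, with 2 copies in Gadd45b. A TATAAA match was present in Gadd45g and in 12.9% of windows. None of the 5 members' windows held the cAMP response element TGACGTCA, the glucocorticoid receptor half-site AGAACA, the STAT site TTCNNNGAA, the NF-kappaB site GGGACTTTC, the AP-1 site TGANTCA or the FOXO site GTAAACA. Among all windows the share with a match was 1.59%, 17.5%, 7.67%, 0.272%, 6.34% and 3.21%, in that order. A match describes letters in a window of 250 bases and shows no binding. Only 1 letter pattern of each motif was searched, so a window without a match is not shown to lack the site.

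Gadd45b, Gadd45a and Btg3 were higher and Gadd45g was lower by 2-fold or more after oil, while Btg1 lay within 1.5-fold. Among all 9209 measured genes, 3.21% were higher and 2.92% lower by 2-fold or more, together 6.14%. This balance turned from 296 higher and 269 lower to 245 and 330 after centring each array on its median. It stayed with quantile normalization, at 291 and 272, and with loess, at 289 and 273. The members were picked with this contrast in view, so nothing is read from their share. The median log2 ratio of the oil array over the fasted array was 1.06 over the 5 members and -0.01 over all measured genes. Opposite directions occurred within the GADD45 family, 2 of its 3 genes being higher and 1 lower. Of the 2 BTG genes analysed, Btg3 was higher and Btg1 nearly equal.

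**Figure D1:**
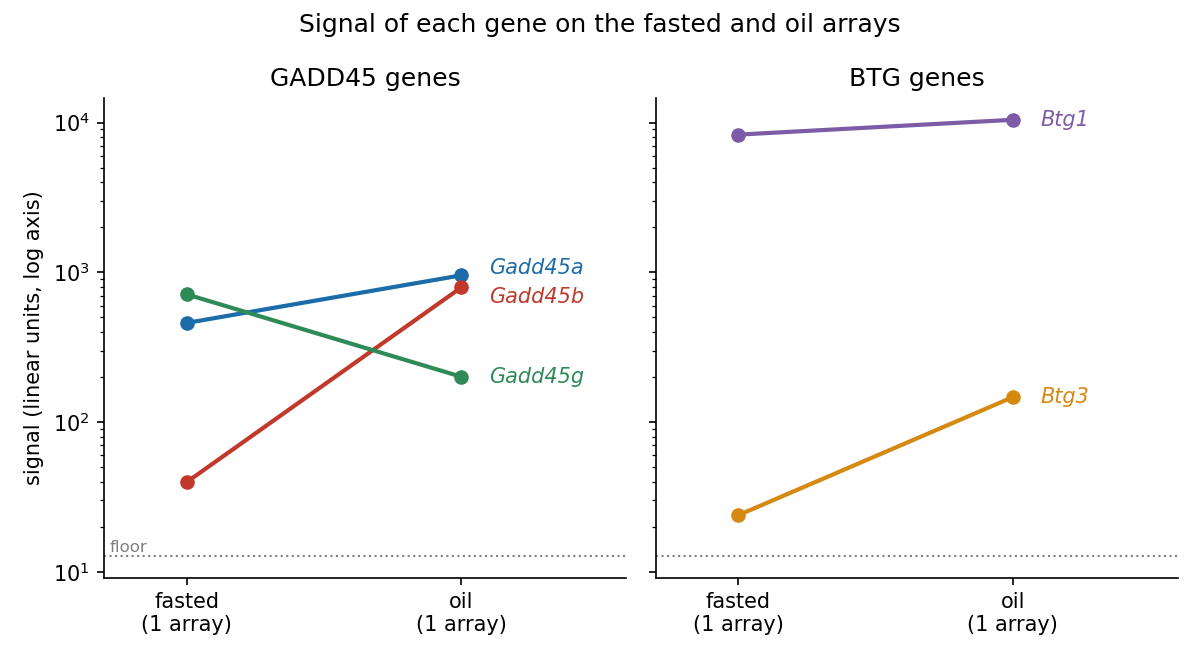
Signal of each member on the fasted and the oil array (y axis, linear signal units on a log axis), with GADD45 genes on the left and BTG genes on the right. Each line joins the 2 arrays for 1 probe set and the dotted line is the floor of 12.8. Gadd45b goes from 39.8 to 793.6 and crosses the line of Gadd45g, which goes from 712.7 to 200.8. Signals of different probe sets do not measure relative abundance, so only the slopes are to be compared.

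Gadd45b, the stress-induced and NF-kappaB-responsive member of its family, was dim in the fasted array and bright in the oil array. Its probe set, 1372016_at, gave 39.8 fasted and 793.6 after oil, a log2 ratio of 4.32. The fasted signal was just below that array's median of 42.5, and the signal after oil was at or above 91.9% of the probe sets of its array. Of the 9209 measured genes, 1 had a higher ratio, Dipk1c, named here after its values were seen. With the measured genes split into 4 groups of equal size by mean signal, Gadd45b fell in the second dimmest, where 2.52% were higher by 2-fold or more.

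Gadd45a, the DNA damage-inducible member for which the family was named, was higher to a lesser extent. Probe set 1368947_at gave 459.6 when fasted and 955.4 after oil, a log2 ratio of 1.06 or 2.08-fold. This placed it 261st from the top among measured genes, close to the 2-fold line. With both arrays centred on their median log2 signal its ratio was 0.98, just under 2-fold. In the brightest of the 4 groups, to which it belongs, 2.22% of genes were higher by 2-fold or more.

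Gadd45g, a cytokine-responsive member of the family, went the other way. Its probe set 1388792_at read 712.7 when fasted and 200.8 after oil, 3.55-fold lower, with a log2 ratio of -1.83. It ranked 33rd from the bottom of the measured genes. Both of its signals were well above the array medians of 42.5 and 44.7. In its brightness group, the second brightest, 2.52% of genes were lower by 2-fold or more.

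A contrast between members of a family is not altered when a whole array is scaled by a constant factor. The log2 ratio of Gadd45b exceeded that of Gadd45g by 6.15, which is a 70.8-fold shift of their ratio between the arrays. That of Gadd45a exceeded that of Gadd45g by 2.88, or 7.38-fold, and Gadd45b stood 3.26 above Gadd45a. For scale, log2 ratios of different probe sets of the same gene scattered with a pooled SD of 0.35 over 2290 genes with several measured probe sets. That scatter covers probe error and not variation between rats, and no member had another probe set of 1 gene against which to set its own.

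**Figure D2:**
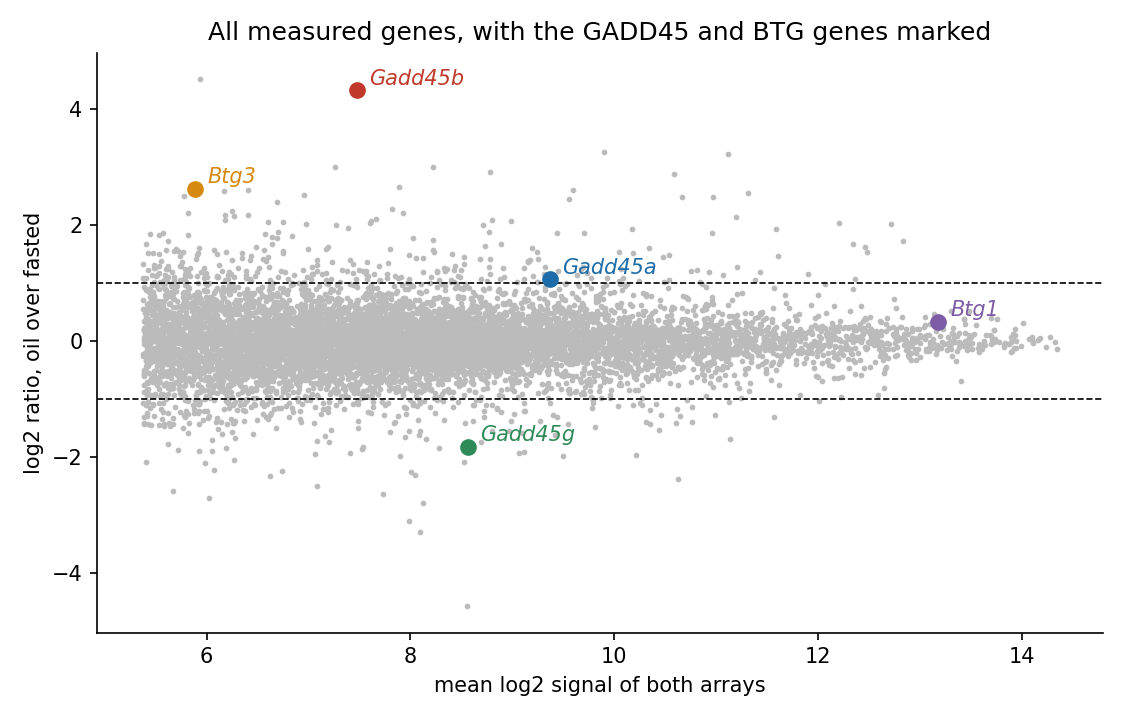
Log2 ratio, oil over fasted (y axis), against the mean log2 signal of both arrays (x axis) for all 9209 measured genes, 1 grey point per gene. The 5 members are coloured and dashed lines mark 2-fold. Gadd45b lies near the top at 4.32 and Gadd45g below the lower line at -1.83. Scatter is widest at the dim end, where Btg3 lies, and Btg1 lies at the bright end at 0.33.

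Btg3, the member of the BTG family known to bind the transcription factor E2F1, ranked 10th from the top of the measured genes. Its probe set 1368072_at read 23.9 when fasted and 146.8 after oil, 6.14-fold higher, with a log2 ratio of 2.62. The fasted signal was below that array's median and at or above 37.3% of its probe sets. Btg3 lay in the dimmest of the 4 brightness groups, in which 5.6% of genes were higher by 2-fold or more. Its size depends on how low signals are treated, the log2 ratio being 1.75 if the floor is raised to the 50th percentile and 2.03 if 16 is added to each signal instead.

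Btg1, a gene expressed in resting cells, was by contrast very bright and nearly equal on both arrays. Probe set 1367657_at gave 8309 when fasted and 10436 after oil, 1.26-fold higher, with a log2 ratio of 0.33. Of the measured genes, 41.3% differed by more than this in either direction. The log2 ratio of Btg3 exceeded that of Btg1 by 2.29, or 4.89-fold. That of Btg1 was smaller than the scatter of 0.35 between probe sets of a gene, so no direction is read from it. The relatives Tob1 and Tob2 carry the same domain. Tob1 had signals of 2469 and 2096.5, a log2 ratio of -0.24, and Tob2 of 196.2 and 387.0, a ratio of 0.98 or 1.97-fold. Btg4 was below the floor on both arrays, at 0.7 and 2.0.

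Genes related to these families were read from 7 lists, which hold none of the 6 members. They cover binding partners, signalling, relatives and regulators, and also other p53 targets, cell cycle genes and other stress-induced genes. Of 124 genes, 92 were measured, and 15 of these were higher and 17 lower by 1.5-fold or more, together 34.8%. After centring each array on its median 14 were higher and 23 lower, with quantile normalization 15 and 20, and with loess 15 and 19. Centring turned the balance of all measured genes the same way at 2-fold, to 245 higher and 330 lower. Their share at 1.5-fold after centring is not given here. Without centring, 9.44% of all measured genes were higher and 10.1% lower by that much, together 19.5%. Single lists differed, from 3 higher and 8 lower of 17 p53 targets to 2 higher and none lower of 16 deadenylation genes and BTG relatives. The lists were drawn up with results of these data known, so these counts are no independent evidence.

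Partners of the GADD45 proteins went both ways, with 3 of 8 measured genes higher and 1 lower by 1.5-fold or more, at a median log2 ratio of 0.18. Cdkn1a, which encodes p21, was 2.10-fold higher, with 1.07 and 1.51 on its 2 probe sets, Tdg, a DNA glycosylase, 1.76-fold and Mapk14, the p38 alpha kinase, 1.71-fold. Nr1i3, the xenobiotic receptor CAR that uses GADD45B as a coactivator, was 1.96-fold lower, and Map3k4 had a log2 ratio of 0.11. With centring, quantile normalization or loess 2 partners were lower. Of the p38 and JNK cascade, 2 of 13 measured genes were higher, Mapk14 and its effector kinase gene Mapkapk2, and 2 lower, Dusp1, a phosphatase that switches p38 and JNK off, and Mapk9, which encodes JNK2. Their log2 ratios were between -0.88 and 0.80 on the brightest probe sets, and the median was -0.05. The other probe set of Dusp1 was at -1.07.

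Among the genes of messenger RNA deadenylation, which BTG proteins promote, and the BTG relatives, 14 of 16 lay within 1.5-fold. The 2 that were higher were Tob2 and Cnot9, a CCR4-NOT subunit at 1.51-fold. Cnot9 dropped out after centring each array on its median, with 16 added to each signal and with the mean over probe sets. With centring 1 gene was lower, the scaffold subunit gene Cnot1, named after its values were seen and at -0.55 as reported. Cnot7 and Cnot8, the deadenylases that BTG proteins bind, had log2 ratios of 0.32 and 0.27. The median was 0.10. Pan2 and Pan3, named after their values were seen, each had another probe set more than 1.5-fold apart. Pan2 was at 0.82 there against -0.21 on its brightest probe set, and Pan3 at -0.63 against 0.19.

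Of 15 measured regulators of GADD45 and BTG transcription, 3 were higher and none lower by 1.5-fold or more, at a median of 0.09. Smad3 was lower by that much after centring each array on its median. With no filter on dim probe sets Atf3 was lower too, at 56.5 fasted and 14.1 after oil. Mdm2, at 0.17 on its brightest probe set, had another at -1.02. Smad3, Atf3 and Mdm2 were named after their values were seen. Stat3, the transcription factor of interleukin 6 signalling, was 3.80-fold higher, Nfkbia, an inhibitor and target of NF-kappaB, 2.22-fold and Foxo1 1.84-fold. Foxo3, of the same forkhead family, had a log2 ratio of -0.08, and the probe sets of Nr3c1, the glucocorticoid receptor gene, disagreed at -0.40 and 0.65.

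Of 17 measured p53 targets, 8 were lower and 3 higher by 1.5-fold or more, at a median of -0.57. Among all measured genes 10.1% were lower and 9.44% higher by that much. Gadd45a and Btg3 were both higher, but they were chosen by their values on these arrays, so nothing is read from that contrast. With the filter at the 75th percentile 5 of the listed targets were lower and 1 higher. Phlda3, an inhibitor of AKT signalling, was 3.67-fold lower, Ccng2, cyclin G2, 2.40-fold, and Sesn1, an inhibitor of mTORC1 signalling, 3.13-fold, the last with another probe set at 0.10. Tp53inp1, a p53-induced nuclear protein, was 3.58-fold higher. Cdkn1a, given above, was 2.10-fold higher, and Zmat3, named after its values were seen, 1.68-fold.

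Of 12 measured G1 cyclins, kinases and cell cycle inhibitors, 3 were lower and 1 higher by 1.5-fold or more, at a median of -0.22. Rb1, the retinoblastoma gene, was 6.27-fold lower on its single probe set, Ccnd1, cyclin D1, 1.83-fold and the inhibitor gene Cdkn2d 1.54-fold, and Cdkn1a is given above. Of 16 other stress-induced and early response genes, 4 were higher and 3 lower, at a median of 0.24. Cebpb, a transcription factor of the acute phase, was 2.42-fold higher and Zfp36 and Ddit4 1.71-fold each, while Zfp36l1, a relative of Zfp36 that destabilizes messenger RNAs, was 2.05-fold lower.

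**Figure D3:**
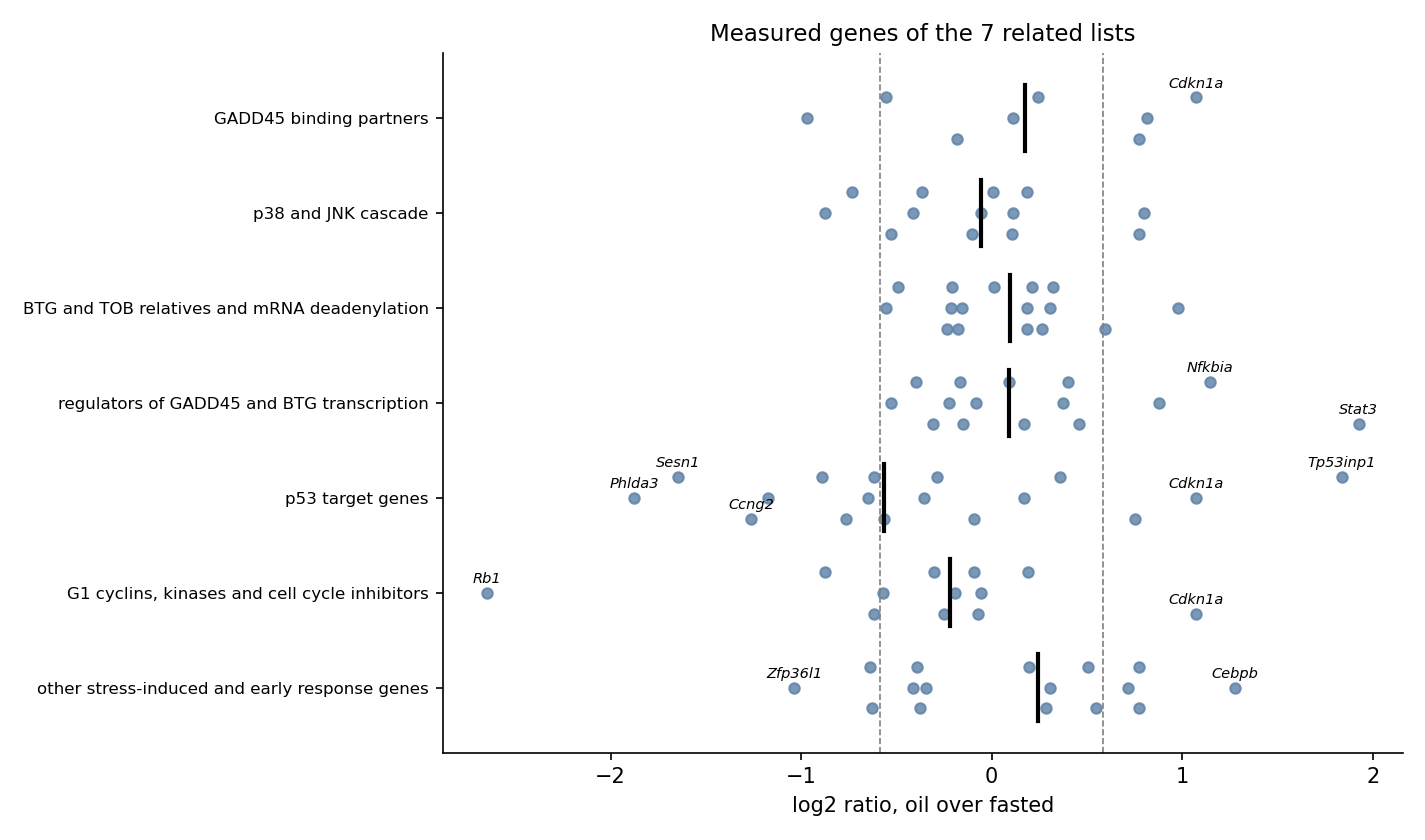
Log2 ratio, oil over fasted (x axis), of each measured gene of the 7 related lists (1 row per list, 1 point per gene, with points of a row spread vertically for legibility only). Black bars are list medians and dashed lines mark 1.5-fold. Genes at least 2-fold apart that the text names are labelled. The p53 targets have the lowest median, -0.57, with Tp53inp1 and Cdkn1a on the high side, and Stat3 is the highest regulator at 1.93.

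Hepatocyte markers were bright on both arrays, and all 7 lay within 1.5-fold between the arrays. Summed signal over the 5 matched macrophage markers was 2515 fasted and 2870.5 after oil, and over 6 lymphocyte markers, none of them measured, 112.2 and 96.9. The sums were 2472 and 2649 for stellate cell and fibroblast markers and 3921 and 4378 for endothelial. For 3 cholangiocyte markers, 1 of them measured, they were 239.1 and 172.7. For 3 red cell markers, 2 of them measured, they were 9353 and 9062. Most of the red cell sum was Hbb, at 9091 and 8851.5, and Alas2 had a log2 ratio of -0.42. Of the 7 stellate cell and fibroblast markers, Dcn was 1.79-fold and Acta2 1.59-fold higher and Lrat was lower, at a log2 ratio of -0.59. The 5 measured endothelial markers went both ways, 3 of them higher and 2 lower by any amount. Lyve1 was 1.52-fold higher, at 1798 and 2741, and Kdr was 1.46-fold lower, at 1408.8 and 966.0. Stab2 had a log2 ratio of -0.21. The measured neutrophil markers were higher on the oil array, as were Gadd45b, Gadd45a and Btg3 and, by 2-fold or more, 296 measured genes in all. Of the 5 listed, 2 were matched, S100a8 at 32.0 and 75.7 and S100a9 at 62.9 and 253.1, with summed signals of 94.9 and 328.8. When fasted, S100a8 was below the signal of 41.4, so it passed only through the oil array. For beta-actin the 3′ signal was 2.63 times the 5′ signal when fasted and 3.20 times after oil, a measure of RNA integrity, and for Gapdh 1.28 and 1.34 times. The part of these markers and ratios in the differences of the members was not tested.

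Each of the 5 members kept the sign of its log2 ratio under all of the processing alternatives in which it was measured. Several of these could not alter a member's value. Each member had 1 probe set, with no suffix that marks shared transcripts. The filters, the mean over probe sets and the dropping of such suffixes therefore left its value as reported. Removing the floor did so too, because all signals of the members were above 12.8. Gadd45g ranged from -1.90 to -1.75 on the log2 scale and Gadd45b from 3.86 to 4.34. Btg1 ranged from 0.26 to 0.33.

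**Figure D4:**
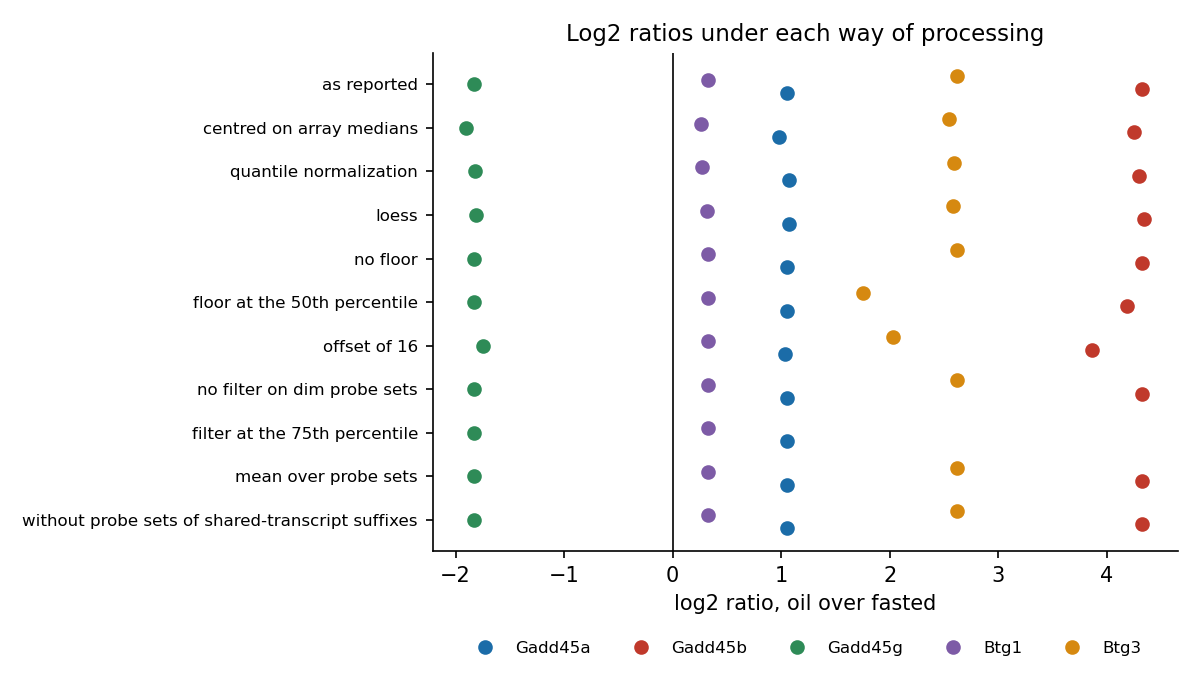
Log2 ratio, oil over fasted (x axis), of each member under the processing as reported and each alternative (1 row each, 1 colour per gene, with points of a row offset vertically for legibility). Gadd45g stays left of 0 in every row and the other members right of it. Rows with no floor, another filter, the mean over probe sets or without shared-transcript suffixes could only repeat the reported values. Btg3 moves most, from 2.62 to 1.75 when the floor is raised to the 50th percentile. Gadd45b and Btg3 are absent with the filter at the 75th percentile.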

How the data were processed

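The authors deposited a linear signal intensity for each probe set on each array, made with Affymetrix Expression Console per the submitters' processing notes. For its algorithm and version, the sources used here give nothing. After trimming 2% from each end, both arrays had a mean of 200.1. The number of arrays limits the precision.

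Control probe sets (57) were left out. Among the remaining 31042, a floor was set at the 25th percentile, 12.8, before log2. Probe sets with a mean log2 of 5.37 or more, the median, counted as measured. The platform annotation gave a single gene for 20826 and several for 436, and current symbols were looked up in a RefSeq table (GRCr8), which held the gene ID of 20758 of the former. The brightest probe set stood for its gene. With 1 array per group, fixed sizes of 2-fold (members) and 1.5-fold (lists) took the place of a test.

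The members and lists were chosen with earlier results of these data known. Genes named were the 6 members, up to 4 genes per list of largest ratio among those 1.5-fold or more apart, and fixed partners and regulators. Btg4 and marker genes were named after their values were seen. A planned contrast of Btg3 with Btg2 was not analysed here. Contrasts with Btg1 and Gadd45a were added after seeing the data. The functions were tested on simulated arrays, with changes planted in brighter probe sets only, so dim signals such as those of Btg3 were not covered. Software was Python 3.11.15 with pandas 2.3.3, numpy 2.4.6, statsmodels 0.14.6, scipy 1.17.1 and matplotlib 3.10.9.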

Additional observations from a re-analysis of the deposited data

How the results depend on the processing

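Alternatives were centring, quantile and loess normalization, other floors and filters, an offset of 16, the mean over probe sets, dropping probe sets whose suffix marks shared transcripts, and other fold thresholds. A value was taken as moved when it differed by more than 0.35 on the log2 scale, the scatter between probe sets of a gene. With the offset, Gadd45b was at 3.86 and Btg3 at 2.03, Gadd45b minus Gadd45g was 5.61, Gadd45b minus Gadd45a 2.83 and Btg3 minus Btg1 1.70. With the floor at the 50th percentile, Btg3 was at 1.75 and Btg3 minus Btg1 at 1.42. A filter at the 75th percentile left out Gadd45b and Btg3, so their values and contrasts could not be had there. Genes higher and lower by 2-fold or more numbered 802 and 680 with no filter and 132 and 108 with the 75th percentile filter. At 1.5-fold they numbered 869 and 931 and at 3-fold 73 and 49. At 2-fold, 5 genes of the 7 lists were higher and 6 lower. Of 140 counts of single lists, 126 stayed within 1.5 times. No paired analysis was possible because each group is 1 array.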
